A study of Mus musculus with 4 samples.

Results

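The genes described here are 10 genes of the response to low oxygen and of glycolysis, taken as a named list: Hif1a, Epas1, Vegfa, Slc2a1, Ldha, Pdk1, Bnip3, Egln3, Ankrd37 and Pfkfb3. They are 10 of 20167 protein-coding genes whose start could be placed in both genome builds of the peak lists. Open chromatin was profiled by ATAC-Seq, in which the Tn5 transposase inserts adapters into accessible DNA, in primary chondrocytes from mouse rib cartilage. The Cho group had 2 replicates, with no genotype in the labels. WT and the double deletion E160(delta/delta);E308(delta/delta), called the deletion library here, had 1 library each. E160 and E308 are enhancers upstream of Sox9, which encodes the main transcription factor of cartilage. Per the study methods, rib cartilage came from newborn mice, was digested with collagenase and was used within a few passages in culture. Both enhancers were removed from the germline by CRISPR/Cas9 editing in successive steps, begun in C57BL/6J embryos, so all cells of the deletion animals lacked them, and the WT animals were littermates. The sex of the animals was not considered. Whether a library pooled animals is not given in the sources used here.

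Growth plate cartilage has no blood vessels, and its chondrocytes are known to depend on the hypoxia-inducible factors. HIF-1α, the product of Hif1a, and HIF-2α, the product of Epas1, are made continuously and destroyed when oxygen is present, because prolyl hydroxylases such as the product of Egln3 mark them for the VHL ubiquitin ligase. When oxygen is low they pair with ARNT and bind DNA at a short core, ACGTG or GCGTG, near genes for glucose uptake, glycolysis, lactate production, vessel growth and mitochondrial turnover. An ATAC-Seq peak shows that DNA at a site was accessible in part of the cells. It measures neither transcription nor binding of a factor.

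Every one of the 10 genes had a promoter peak in each of the 4 libraries. A promoter peak was a peak whose summit lay within 1 kb of the gene start. Positions are given in bp from that start, negative before it, because the peak list of Cho replicate 2 is in GRCm38 and the other lists are in NCBIM37 (mm9). Over all genes a promoter peak was called for 59.5% and 67.1% in the Cho replicates, 63.1% for WT and 68.7% for the deletion library, and in all 4 libraries for 56.5%. The 95% exact binomial interval of 10 of 10 begins at 69.2%. The genes were picked by name with earlier results of these data known, so this interval does not test the set against all genes. In these bulk libraries, a larger share of cells with open DNA and DNA that is more open in each cell cannot be told apart. Of 64 further genes of the same pathways, 52 had a promoter peak in all 4 libraries.

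The promoters that carry the HIF core closest to the WT summit were those of Bnip3, Slc2a1, Hif1a, Ankrd37 and Ldha, and the bases before their starts are shown to place these letters. Sequences are RefSeq promoters in GRCm38, written 5′ to 3′ in the direction of the gene and ending at the base before the start. Capitals mark every ACGTG or GCGTG on either strand. On the opposite strand the core reads CACGT or CACGC. Capitals over CACGTG hold a core on both strands, which is also the letters of an E-box.
Bnip3, GRCm38 chr7:138909507-138909656, minus strand: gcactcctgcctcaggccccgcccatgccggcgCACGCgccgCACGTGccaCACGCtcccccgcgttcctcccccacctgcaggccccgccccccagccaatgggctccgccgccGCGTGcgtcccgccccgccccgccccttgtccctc
Slc2a1, GRCm38 chr4:119108595-119108744, plus strand: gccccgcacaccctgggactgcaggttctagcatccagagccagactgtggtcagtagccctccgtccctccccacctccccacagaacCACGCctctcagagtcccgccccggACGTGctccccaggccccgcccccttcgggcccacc
Hif1a, GRCm38 chr12:73907717-73907866, plus strand: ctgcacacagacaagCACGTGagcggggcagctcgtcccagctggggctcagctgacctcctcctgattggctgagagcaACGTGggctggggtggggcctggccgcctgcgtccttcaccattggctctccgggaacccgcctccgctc
Ankrd37, GRCm38 chr8:45999851-46000100, minus strand: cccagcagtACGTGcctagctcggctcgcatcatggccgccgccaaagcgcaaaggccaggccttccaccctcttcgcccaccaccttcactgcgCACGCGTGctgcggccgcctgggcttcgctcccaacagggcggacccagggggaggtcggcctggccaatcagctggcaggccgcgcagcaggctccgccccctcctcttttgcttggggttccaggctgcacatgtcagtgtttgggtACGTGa
Ldha, GRCm38 chr7:46845654-46845803, plus strand: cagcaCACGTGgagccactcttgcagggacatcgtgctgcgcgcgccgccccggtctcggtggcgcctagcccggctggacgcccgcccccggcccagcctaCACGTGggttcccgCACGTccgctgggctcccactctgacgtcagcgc

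In Bnip3, whose product recruits autophagosomes to mitochondria, the WT summit at -105 bp fell on a core, at a distance of 0 bp. The promoter of Bnip3 held 5 core matches from 250 bases before to 50 after the start, and 4 of them were the longer form ACGTGC or GCGTGC. The distance from the WT summit to the nearest core was 11 bp in Slc2a1, 20 bp in Hif1a, 23 bp in Ankrd37 and 24 bp in Ldha. Ldha had the most matches, 7, and 2 E-boxes. Pdk1 held 2 matches and its nearest core lay 37 bp from the summit. Egln3 held 1 match, at -229 bp, and none within 150 bp of its WT summit. Vegfa had none of these letters in its window of 300 bases, which says nothing of sites outside it. The Epas1 promoter is not among the RefSeq promoters used here.

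Across the set, 8 of the 9 promoters read held a core (88.9%, 95% interval 51.8% to 99.7%), against 50.6% of 16161 promoters of the same length. The core contains CG, and the 9 promoters held 16 to 30 CG pairs each and were 54.7% to 71.7% G or C. The 16161 were not matched to them for base composition or for a peak. The longer form was in 6 of 9 (66.7%, 29.9% to 92.5%), against 20.3% of all promoters. Of 52 other pathway promoters, 78.8% held the core and 44.2% the longer form. A match is a run of letters, not a shown binding site.

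**Figure D1:**
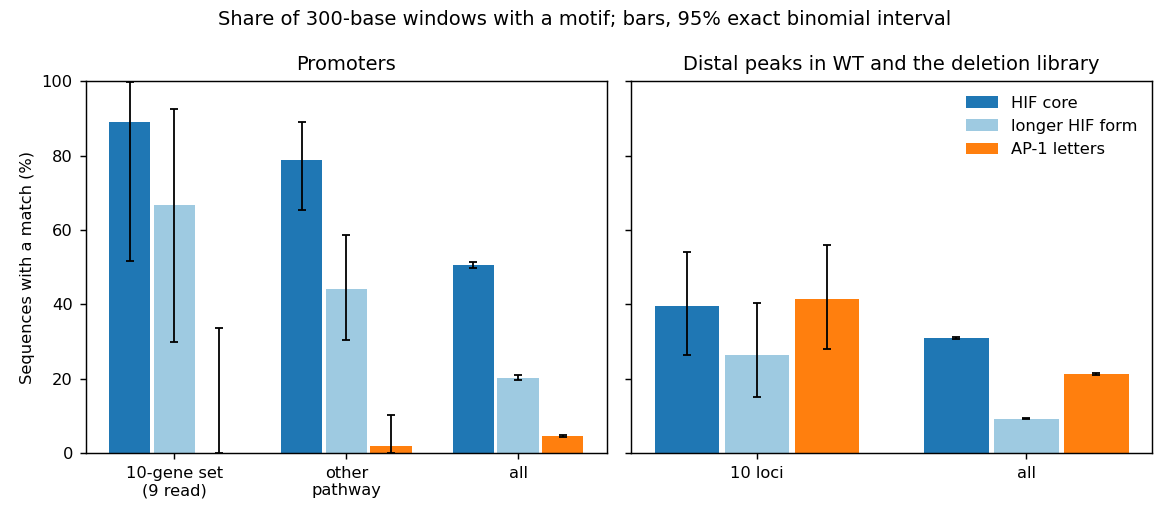
Bars give the percentage of windows of 300 bases that hold the HIF core, its longer form or the letters TGACTCA of the AP-1 site, on either strand, and error bars are 95% exact binomial intervals. The core was in 88.9% of the promoters of the set and in 50.6% of all promoters, and TGACTCA was in 41.5% of the distal peaks of the 10 loci and in 21.3% of all such peaks. The sets were not matched for base composition.

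Promoter peaks were then described by their fold enrichment, the summit pileup over the local background with 1 added to both. In Cho replicate 1 the background was the same value throughout, so fold enrichment and pileup rank its promoters alike. In the other lists it was also estimated locally and is higher where surrounding DNA is open. For this reason the summit pileup over the background of the library, and its percentile among all promoters with a peak in that library, are given beside it.

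By pileup, Hif1a ranked behind Pfkfb3 in Cho replicate 1 and highest of the set in each other library. Its fold enrichment was 24.9 and 26.6 in the Cho replicates, 15.9 for WT and 14.7 for the deletion library. The Cho mean was 25.7 ± 1.17 (SD, n = 2), over unlike local backgrounds of 1.37 and 11.6 tags. Its pileup stood at percentiles 83.7, 90.1, 92.0 and 94.8, in the same order. By fold enrichment the percentiles were 83.7, 81.0, 73.3 and 66.5. The summit lay from -3 to -88 bp.

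Hif1a has a further annotated start at -6492 bp, the first base of the gene in GENCODE. At this start no peak was called in Cho replicate 1, while Cho replicate 2 had one of fold enrichment 27.6, WT of 9.25 and the deletion library of 20.4. The summit pileups were 94, 12 and 39 tags. Over library background the deletion library to WT ratio was 1.87, with a 95% counting interval of 0.960 to 3.93. At the main start they were 334, 52 and 69 tags. By fold enrichment the upstream start was thus above the main start in Cho replicate 2 and the deletion library, by pileup it was below it in each of these lists, and the interval for the genotype libraries held 1. It was singled out after its values were seen.

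Epas1 had fold enrichments of 11.8 and 23.3 in Cho replicates 1 and 2, 16.6 for WT and 15.1 for the deletion library. Its pileup percentiles ran from 47.5 to 64.2. The summit lay farther before the start than in the other genes, at -412, -366, -408 and -421 bp, and its position was alike in all libraries. Of the genes for the HIF α subunits, Hif1a had the higher pileup percentile in all 4 libraries, although by fold enrichment Epas1 was above Hif1a in WT and the deletion library.

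Egln3, the prolyl hydroxylase gene that is itself a HIF target, was the single member above WT in the deletion library. Its fold enrichment was 13.1 and 24.4 in the Cho replicates, 14.04 for WT and 20.0 for the deletion library. Its summits lay within 32 bp of the start. The Cho replicates differed by more than WT and the deletion library did, with a log2 ratio of 0.90 against 0.51. The backgrounds of the Cho lists were unlike, so the 0.90 is not replicate spread alone.

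Slc2a1 encodes the glucose transporter GLUT1. Its promoter had fold enrichments of 24.1 and 8.498 in the Cho replicates, 10.04 for WT and 8.49 for the deletion library. The Cho replicates differed most here, with a mean of 16.3 ± 11.01 (SD, n = 2), and by fold enrichment the percentiles of these replicates were 82.5 and 15.2. By pileup the percentiles were 82.5 and 65.5. The local background at this summit was 21.2 tags in Cho replicate 2, against 4.78 at Egln3, and 1.37 at both genes in Cho replicate 1.

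Pfkfb3 makes the kinase-phosphatase that raises fructose 2,6-bisphosphate, an activator of glycolysis. Its highest promoter fold enrichments were 26.6, 13.3, 11.4 and 9.44 in both Cho replicates, WT and the deletion library. These were not the same peak. The summit lay at 658, 687 and 692 bp in the first 3 libraries and at -8 bp in the deletion library. Like was compared with like by peak. The peak past the start had 11.4 for WT and 8.83 for the deletion library, and the peak at the start had 9.86 and 9.44. For these peaks the pileup ratios were 0.712 (0.454 to 1.12) and 0.864 (0.541 to 1.40), so the switch of the highest summit came with intervals that held 1 at both. In each Cho list a single interval covered both places.

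Ldha encodes the lactate dehydrogenase subunit that turns pyruvate into lactate. Its promoter had 18.6 and 17.8 in the Cho replicates, 10.9 for WT and 10.3 for the deletion library. The Cho fold enrichments were close, at 18.2 ± 0.547 (SD, n = 2), over unlike local backgrounds of 1.37 and 8.55 tags. By fold enrichment the WT and deletion values were nearer to each other than to the Cho values. By pileup over library background the Cho replicates had 31.4 and 86.4, WT 86.0 and the deletion library 71.9. The peak was at the RefSeq start used here, and the GENCODE gene begins at -4329 bp from it.

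Pdk1, the kinase that closes the pyruvate dehydrogenase gate to the mitochondrion, had 16.5 and 18.6 in the Cho replicates, 18.5 for WT and 14.9 for the deletion library. By fold enrichment its WT peak stood at percentile 88.2, the highest of the set in WT. In the deletion library it stood at 68.4.

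Bnip3 had 16.9 and 11.6 in the Cho replicates, 8.75 for WT and 8.67 for the deletion library. WT and deletion values were almost equal, with a log2 ratio of -0.01. An intron peak at 2322 bp was stronger than the promoter in every library, with 25.3, 13.1, 11.6 and 9.60.

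Ankrd37, a HIF target that encodes an ankyrin repeat protein, had 19.8 and 25.97 in the Cho replicates, 16.3 for WT and 15.9 for the deletion library. Its pileup percentiles were 74.4, 82.2, 75.2 and 75.2, the narrowest range of the set.

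Vegfa, which encodes the growth factor that draws vessels into cartilage, had the lowest fold enrichment of the set in Cho replicate 1 and the deletion library. Its values were 8.02 and 10.3 in the Cho replicates, 9.52 for WT and 6.36 for the deletion library. By fold enrichment its percentiles were 28.2, 21.0, 27.1 and 11.2, whereas by pileup they were 28.2, 59.0, 64.6 and 48.9. Outside Cho replicate 1, the Vegfa promoter ranked low by fold enrichment alone.

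**Figure D2:**
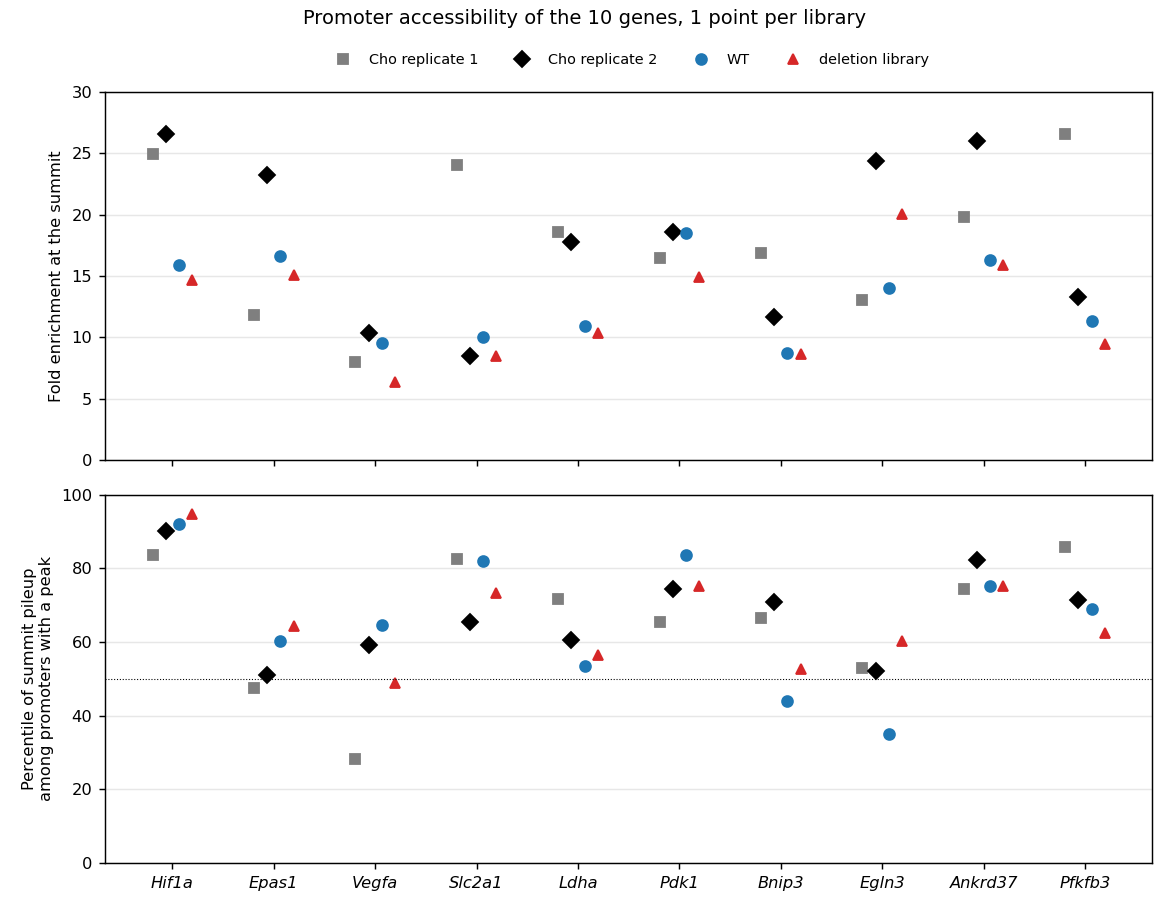
Each point is 1 library, with the 10 genes along the horizontal axis, fold enrichment at the highest promoter summit above, and the percentile of the summit pileup among all promoters with a peak in that library below. Hif1a lies between percentiles 83.7 and 94.8 in all 4 libraries, whereas Slc2a1 runs from a fold enrichment of 8.49 to 24.1.

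As a group the promoters were near the middle of all promoters by fold enrichment in 3 libraries, and higher by pileup. The median fold enrichment percentile of the 10 was 69.1 and 51.5 in the Cho replicates, 49.4 for WT and 50.1 for the deletion library. The median pileup percentile was 69.1, 68.1, 66.8 and 63.3. Median fold enrichments were 17.7, 18.2, 12.7 and 12.5, against 12.2, 17.8, 12.8 and 12.5 over all genes with a promoter peak. The median pileup over library background was 30.0 and 101.4 in the Cho replicates, 102.6 for WT and 77.5 for the deletion library, against 20.5, 68.5, 80.4 and 67.1 over all genes.

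The next comparison asked whether the promoters differed in accessibility between WT and the deletion library. By fold enrichment none of the 10 was 1.5-fold higher in the deletion library, where 6.38% of 12686 promoters were, and none was 1.5-fold lower, where 0.378% were. The log2 ratio ran from -0.58 in Vegfa to 0.51 in Egln3, and 9 of 10 were below 0, as were 47.6% of all promoters. Their median was -0.13, against 0.01 over all promoters. Vegfa lay just inside the limit, with a ratio of 0.667.

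By pileup over library background, Vegfa alone passed 1.5-fold, with 99.9 for WT and 65.5 for the deletion library, a ratio of 0.656 (95% counting interval 0.409 to 1.06). Of all promoters 6.63% were 1.5-fold lower and 2.28% were 1.5-fold higher by this measure. The median log2 ratio of the 10 was -0.38, against -0.26 over all promoters. By pileup 9 of 10 were below 0, and so were 78.9% of all promoters. Pdk1 had 127.6 for WT and 87.8 for the deletion library, a ratio of 0.688 (0.457 to 1.04), and Slc2a1 had 124.8 and 86.2, a ratio of 0.691 (0.457 to 1.05). Egln3 had 63.8 and 75.1, a ratio of 1.18 (0.700 to 2.03). The intervals of all 10 held 1. With 1 library per genotype, these intervals cover counting error only and compare libraries, and genotype cannot be told apart from library.

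**Figure D3:**
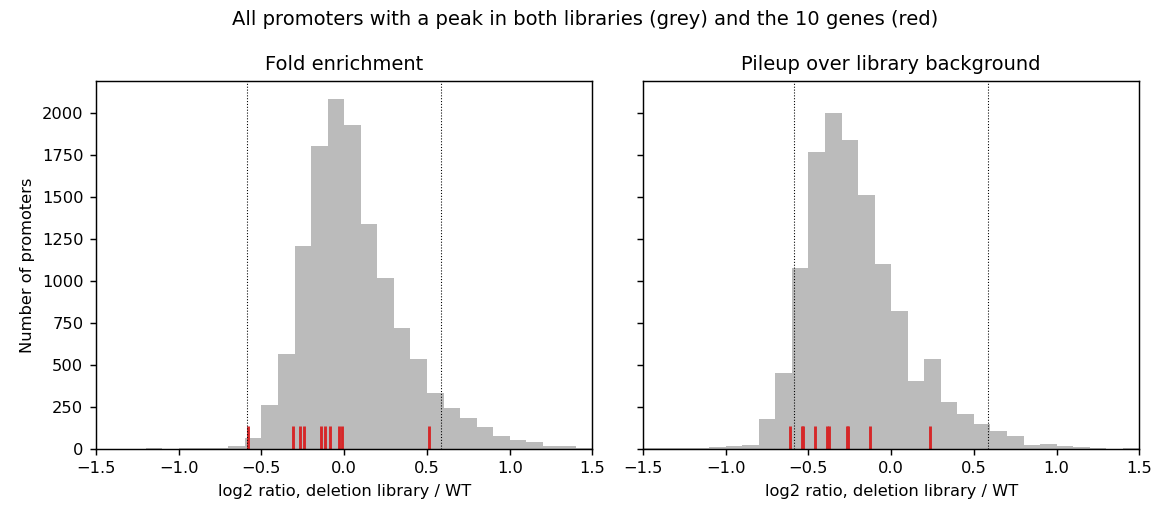
Grey bars count the 12686 promoters with a peak in both libraries by the log2 ratio of the deletion library to WT, by fold enrichment on the left and by pileup over library background on the right. Red marks are the 10 genes, dotted lines are 1.5-fold, and the mark of Vegfa lies just inside the lower line on the left and just past it on the right.

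The fold enrichments of the Cho replicates were set beside these ratios. Their background was constant in Cho replicate 1 and local in Cho replicate 2. The difference between them is therefore not replicate spread alone, and it cannot gauge the noise between WT and the deletion library. For 6 of the 10 genes the log2 ratio of the deletion library to WT was smaller in size than that between the Cho replicates. The other 4 were Hif1a, Vegfa, Ldha and Pdk1, and in Vegfa the ratios were -0.58 and 0.36.

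Other genes of the pathways were read in the same way. All 10 regulators of HIF on the list, such as Vhl, Egln1 and Arnt, had a promoter peak in every library. Of 22 genes of glucose uptake and glycolysis, 18 and 20 had one in the Cho replicates, 20 in WT and 21 in the deletion library. Those that lacked one were Hk1 in all 4, Aldoa in all but the deletion library, and Aldoc and Slc16a3 in Cho replicate 1. Each gene was read at 1 start, and other starts were not searched for genes outside the 10. A missing peak therefore does not show that every promoter of the gene was closed.

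Of 8 genes of mitochondrial entry and mitophagy, Cox4i2 and Ndufa4l2 had a promoter peak in Cho replicate 2 alone and the other 6 in every library. Of 24 other HIF targets, 21, 22, 21 and 23 had one. Epo, the erythropoietin gene of kidney and liver, lacked it in all 4. Car9 and Ndrg1 lacked it in Cho replicate 1, Plod2 in Cho replicate 2, and Stc1 and Angptl4 in WT.

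Between WT and the deletion library, 57 of these other genes had a peak in both. By fold enrichment Arnt2 was higher in the deletion library, with 7.53 and 13.0, and Pgam1 was lower, with 15.4 and 10.1, where 6.38% of all promoters were higher and 0.378% lower. By pileup 4 of the 57 were past 1.5-fold lower, where 6.63% of all promoters were, and none was higher, where 2.28% were. The ratio was 0.660 (0.471 to 0.928) in Arnt, 0.663 (0.438 to 1.01) in Siah2, 0.640 (0.435 to 0.942) in Gapdh and 0.621 (0.390 to 0.992) in Pgam1, and the intervals of all but Siah2 left out 1. The Gapdh values came from different peaks. The median log2 ratio of the 57 was 0.01 by fold enrichment and -0.21 by pileup, against 0.01 and -0.26 over all promoters.

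The labelled cell type was checked at marker promoters. Of 12 chondrocyte markers, 7 had a promoter peak in Cho replicate 1 and 11 in each other library. Comp lacked one in all 4, and Acan, Col9a1, Col9a3 and Col11a2 lacked one in Cho replicate 1. Of 5 endothelial markers, 3, 2, 3 and 3 had a promoter peak in both Cho replicates, WT and the deletion library, and Cdh5 and Tie1 had none. Of 5 blood markers, 1, 2, 1 and 2 had one, with none at Ptprc, Itgam or Csf1r. Of 4 muscle markers 1, 2, 2 and 2 had one, of 4 epithelial markers 0, 2, 1 and 2, with none at Krt5 or Krt14, and of 4 fibroblast and osteoblast markers found 2, 4, 3 and 4. The part of other cells in the values here was not tested.

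The lists were of unequal size, with 76242 intervals in Cho replicate 1, 148330 in Cho replicate 2, 90971 for WT and 169591 for the deletion library. A background pileup of 0.361 tags in WT and 0.626 in the deletion library shows the lower depth of WT. In the Cho lists it was 1.37 and 1.96.

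Around the genes, the body plus 50 kb to each side, peaks were counted next. The 10 loci held 85 and 153 peaks in the Cho replicates, 83 in WT and 170 in the deletion library. Per 100 kb the medians over the loci were 5.99, 11.3, 5.68 and 13.1, against 4.41, 9.01, 5.84 and 10.5 over the loci of all genes.

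Slc2a1 had the densest locus in WT, with 15 peaks, while the Cho replicates had 13 and 22 and the deletion library 22. Pfkfb3 had 12 peaks in WT and Bnip3 11. Ankrd37 had 2 in WT, its promoter and a peak near the start of another gene, and no distal peak. Counts at Vegfa and Pdk1 differed widely between lists. Vegfa had 3 and 20 in the Cho replicates, 6 for WT and 17 for the deletion library, and Pdk1 had 2, 14, 5 and 15.

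Nearly all WT peaks at these loci were found again in the deletion library. Of 83 WT peaks, 80 overlapped a deletion library peak (96.4%, 95% interval 89.8% to 99.2%), where 95.9% of all WT peaks did. Of 170 deletion library peaks, 77 overlapped a WT peak (45.3%, 37.7% to 53.1%), where 49.4% of all did. Of the 83 WT peaks, 55 were in all 4 libraries, a share that was not computed over all WT peaks.

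The WT peaks with no partner in the deletion library were weak. They lay at Bnip3 24152 bp, Hif1a 41719 bp and Ldha 11779 bp, with pileups of 5, 6 and 4 tags. The 93 deletion library peaks with no WT partner had a median pileup of 9 tags, against 32 in the 77 with one. Of the 93, 69 overlapped a peak of a Cho list by position from the start, a share that was not computed over all such peaks. The highest of the 93 by fold enrichment were at Epas1, at -28657 bp with 11.6, and in an intron of Ppp2r2d at the Bnip3 locus, at 52702 bp with 10.5. These 2 were named after their values were seen.

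**Figure D4:**
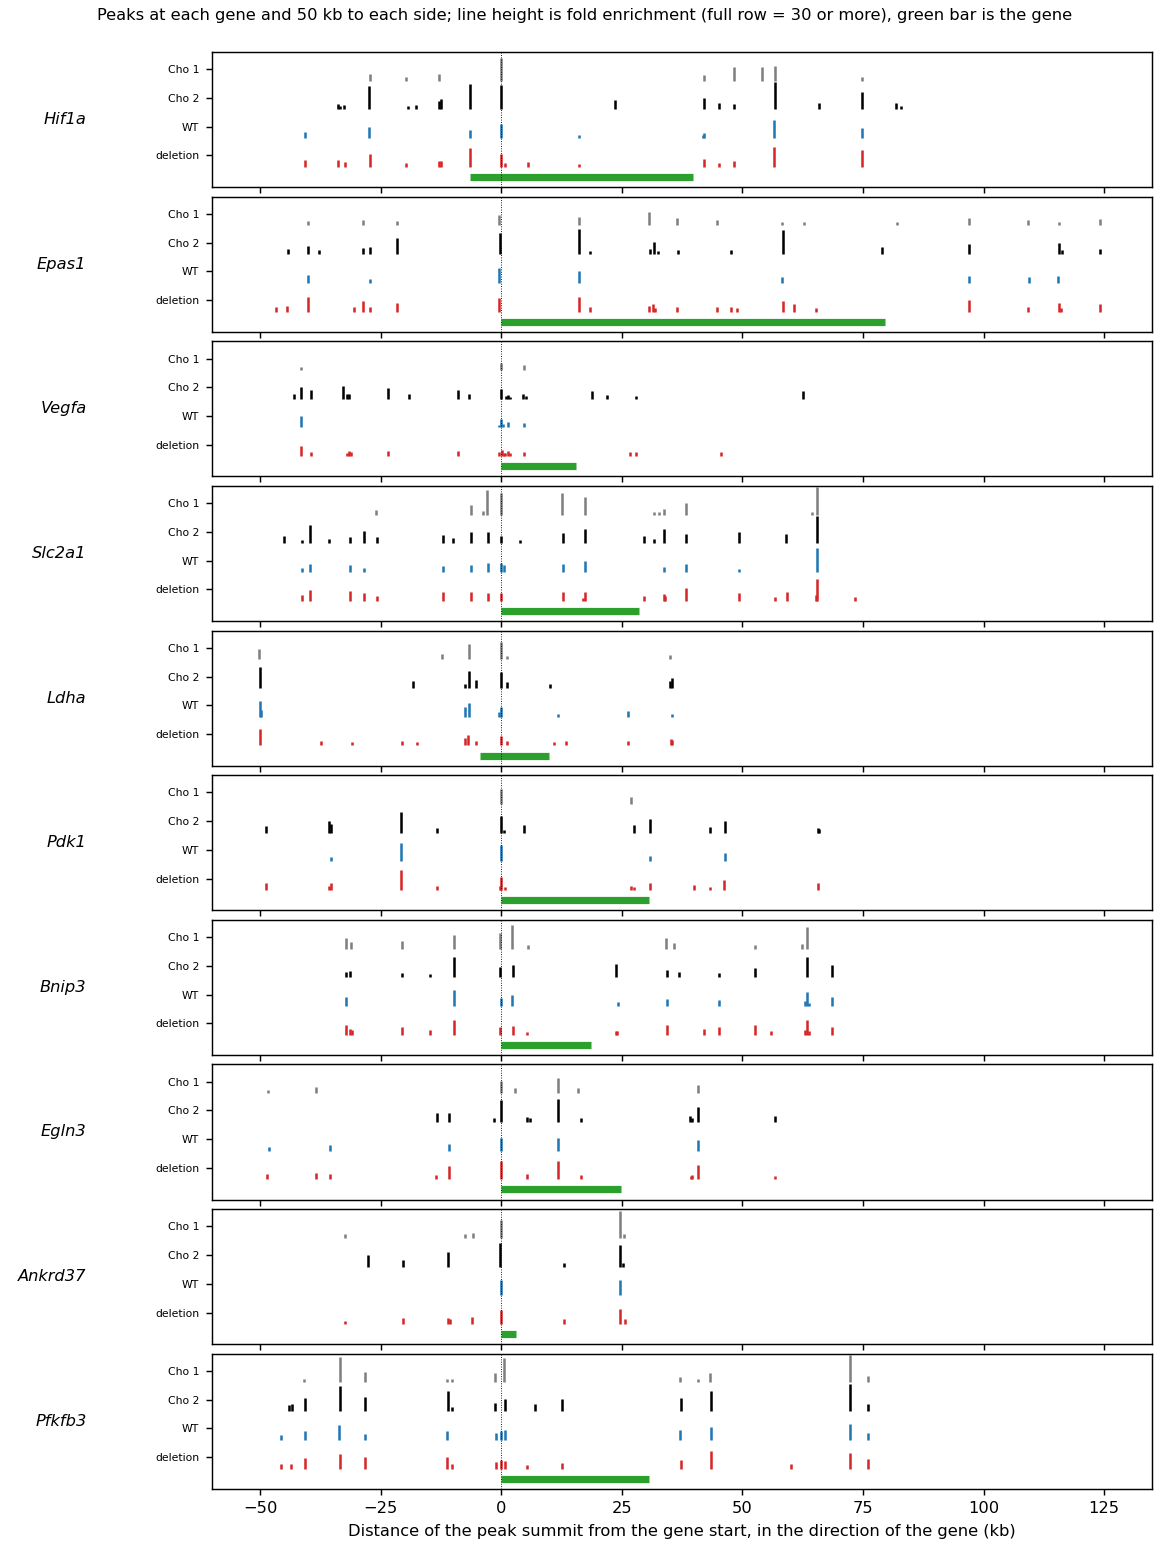
Each panel is 1 gene, each row 1 library, and each line a peak summit at its distance in kb from the gene start, with height for fold enrichment up to 30 and the gene as a green bar. The same positions recur in all 4 rows at many places, such as the intron of Epas1 at 16107 bp and the peak at 72276 bp past Pfkfb3, while rows of Cho replicate 2 and the deletion library hold more short lines.

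Distal peaks, with summits over 1 kb from every annotated gene start, made up 55 of the 83 WT peaks. Of these 37 were intergenic, 17 in introns and 1 in a non-coding exon in GENCODE. Windows of 5 distal WT peaks, chosen after their values were seen, are shown because the values of the distal peaks below refer to them. They are NCBIM37 sequence on the plus strand centred on the WT summit, with 300 bases for Pfkfb3 before its start. Capitals mark the HIF core as above and the AP-1 letters TGACTCA, which read TGAGTCA on the other strand.
Pfkfb3 past the gene, NCBIM37 chr2:11351366-11351516, plus strand: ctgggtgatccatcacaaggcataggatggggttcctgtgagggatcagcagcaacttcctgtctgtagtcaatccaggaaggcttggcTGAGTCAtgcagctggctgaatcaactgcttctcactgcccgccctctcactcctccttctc
Pfkfb3 before its start, NCBIM37 chr2:11457142-11457441, plus strand: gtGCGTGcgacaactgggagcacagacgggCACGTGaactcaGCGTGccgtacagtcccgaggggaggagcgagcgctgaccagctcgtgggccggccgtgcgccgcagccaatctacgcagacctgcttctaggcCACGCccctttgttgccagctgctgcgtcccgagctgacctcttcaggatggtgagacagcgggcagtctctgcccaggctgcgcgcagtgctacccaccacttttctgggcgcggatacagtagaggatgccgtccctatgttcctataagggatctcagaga
Bnip3 before its start, NCBIM37 chr7:146110901-146111051, plus strand: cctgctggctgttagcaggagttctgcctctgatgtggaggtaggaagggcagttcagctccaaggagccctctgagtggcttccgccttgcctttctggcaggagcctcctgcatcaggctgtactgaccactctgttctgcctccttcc
Ldha before its start, NCBIM37 chr7:54094363-54094513, plus strand: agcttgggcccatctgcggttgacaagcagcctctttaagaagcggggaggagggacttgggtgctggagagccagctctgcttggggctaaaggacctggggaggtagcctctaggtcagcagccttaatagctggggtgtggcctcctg
Egln3 intron, NCBIM37 chr12:55293093-55293243, plus strand: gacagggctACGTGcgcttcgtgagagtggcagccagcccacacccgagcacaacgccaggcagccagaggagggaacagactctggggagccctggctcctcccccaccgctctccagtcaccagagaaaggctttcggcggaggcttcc

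The Pfkfb3 peak at 72276 bp, past the end of the gene, reached fold enrichments of 71.4 and 29.4 in the Cho replicates, 17.6 for WT and 17.7 for the deletion library. In Cho replicate 1 its pileup was 168 tags, against 62 at the promoter. It was above the Pfkfb3 promoter in all 4 libraries. Its window of 300 bases held TGACTCA 3 times on either strand and no HIF core.

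On the other side, the Pfkfb3 peak at -33575 bp had 16.4 in both WT and the deletion library and 5 core matches, 1 of them 12 bp from the summit. It is intergenic in GENCODE, but RefSeq lets Pfkfb3 begin at -51981 bp, so this peak lies inside the longer gene. The peak at -11189 bp had a core at its summit, at 0 bp, with 9.51 for WT and 13.2 for the deletion library.

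The Bnip3 peak at -9787 bp had 15.2 and 22.7 in the Cho replicates, 17.4 for WT and 16.0 for the deletion library. It exceeded the Bnip3 promoter in fold enrichment in every library but Cho replicate 1. Its ratio by pileup was 0.894 (0.585 to 1.38).

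In Egln3 the intron peak at 11693 bp had 16.9, 24.8, 13.97 and 20.0 in both Cho replicates, WT and the deletion library, close to those of the Egln3 promoter. Both were higher in the deletion library than in WT, with the intron ratio by pileup at 1.33 (0.799 to 2.27). A peak past the gene at 40839 bp held 2 cores, the nearest 8 bp from the summit, with 12.3 for WT and 15.8 for the deletion library.

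The Slc2a1 locus had a peak at -2811 bp with 27.0, 12.8, 9.92 and 9.12, a core 17 bp from its summit and a pileup ratio of 0.788 (0.531 to 1.18). The highest distal WT peak there by fold enrichment was an intron peak at 17387 bp, with 19.4, 16.1, 12.6 and 10.2, although its WT pileup of 38 tags was below the 46 tags at -2811 bp. The Slc2a1 promoter and both these peaks had their highest fold enrichment in Cho replicate 1, whose background was constant. By pileup over library background each was lowest there, as was the median of all promoters. The promoter had 40.9, against 96.1, 124.8 and 86.2 in Cho replicate 2, WT and the deletion library. At -2811 bp the values were 46.0 against 161.0, 127.6 and 100.6, and at 17387 bp 32.9 against 131.9, 105.4 and 79.8. A peak at -6326 bp had fold enrichments of 10.6, 12.3, 7.60 and 9.75.

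Epas1 had its strongest distal WT peak, again by fold enrichment, in an intron at 16107 bp, with 9.29, 27.8, 13.1 and 16.4. Hif1a had no distal peak within its body that all 4 libraries shared, and its strongest distal WT peak, at -27363 bp, had 7.60, 25.9, 12.4 and 14.6. Vegfa had one at -41517 bp with 3.80, 12.7, 12.4 and 11.4. The strongest near Pdk1, at -20731 bp in a non-coding exon of the neighbour Itga6, had 20.1 for WT, 22.2 for the deletion library and 22.7 for Cho replicate 2, with no call in Cho replicate 1.

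**Figure D5:**
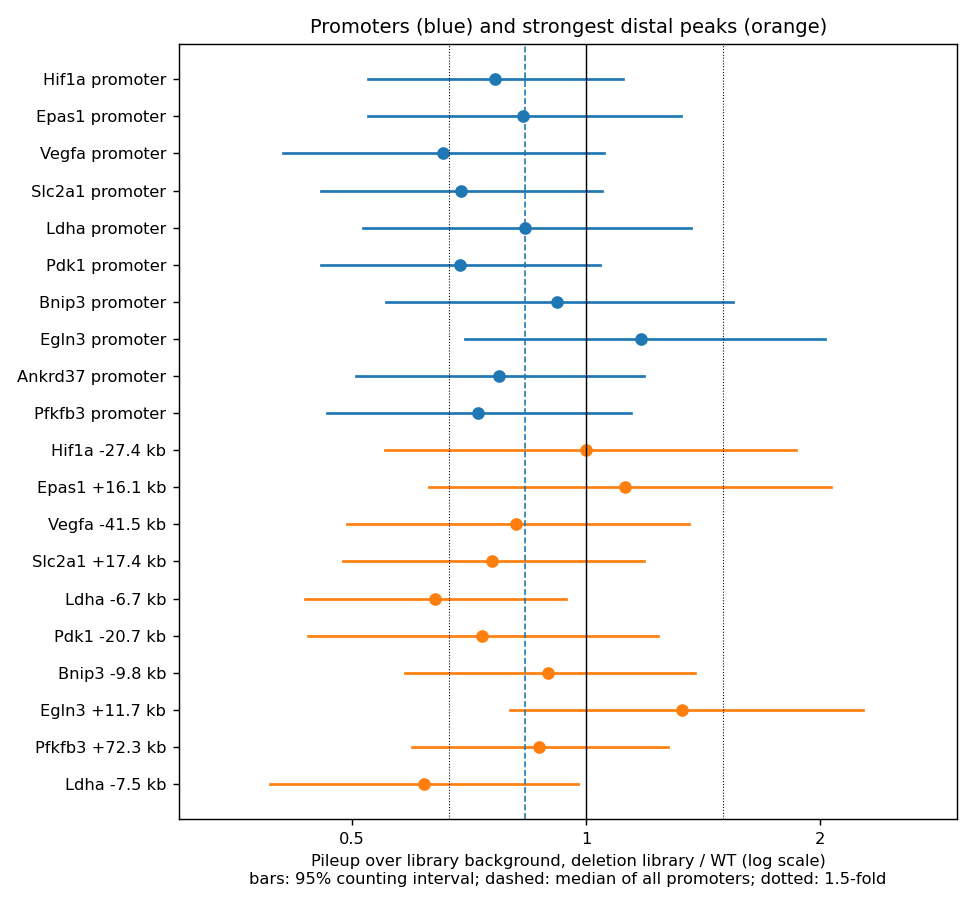
Points are the ratio of the deletion library to WT in pileup over library background, on a log axis, with 95% counting intervals as bars, for the 10 promoters in blue and for distal peaks in orange. All promoter intervals hold 1, and both Ldha distal intervals lie below 1.

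Of the distal WT peaks, 53 overlapped a deletion library peak. By pileup over background 4 of the 53 were 1.5-fold higher in the deletion library, where 13.4% of 67496 such peaks were, and 7 were 1.5-fold lower, where 8.4% were. By fold enrichment 13 were 1.5-fold higher, where 29.3% were, and none was 1.5-fold lower, where 1.01% were. The median log2 ratio was -0.00010 by pileup, against 0.04 over all such peaks, and 0.32 by fold enrichment, against 0.33.

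The 4 higher peaks were at Epas1 -40168 bp, Slc2a1 -28516 bp, Slc2a1 49328 bp and Pfkfb3 -28272 bp, with pileup ratios of 1.77, 1.92, 1.87 and 1.54. The lower interval bounds of all 4 were below 1. Over all such peaks 1.36% were 1.5-fold higher with an interval that left out 1, and 0.659% were lower in that way.

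At the 10 loci the peaks past 1.5-fold whose interval left out 1 were a neighbouring pair before Ldha. The peak at -6736 bp had pileups over background of 149.8 for WT and 95.8 for the deletion library, a ratio of 0.640 (0.435 to 0.942). The peak at -7490 bp had 111.0 and 68.7, a ratio of 0.619 (0.393 to 0.977). Fold enrichments were 14.7 and 11.8 at the first and 10.9 and 8.30 at the second, within 1.5-fold. A single interval of Cho replicate 1 covered both, with 16.9, and Cho replicate 2 had 18.4 and 4.11. Both windows held no HIF core. Of 1173 shared distal peaks with at least 40 tags in WT, a choice by the WT value that itself lowers the ratio, the median ratio was 0.763, and 16.0% were 1.5-fold lower with an interval that left out 1.

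In the distal peaks the HIF core was in 21 of 53 windows of 300 bases (39.6%, 26.5% to 54.0%), against 31.0% of all shared distal peaks, and the longer form in 14 (26.4%, 15.3% to 40.3%), against 9.36%. Counted among both were windows just past the 1 kb limit, at Vegfa 1341 bp and Pfkfb3 -1170 bp, with 3 cores each. The windows were not matched for base composition. Cores were at all 9 loci with such windows, as Ankrd37 had no distal WT peak. Windows at 1 locus share their neighbourhood and are not independent.

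The same promoter and distal windows were also searched for TGACTCA, the letters bound by AP-1 dimers of Fos and Jun proteins, a search chosen after the sequences were seen. These letters were in 22 of the 53 distal windows (41.5%, 28.1% to 55.9%), against 21.3% of all shared distal peaks. They were at 7 of the 9 loci with such windows. In 17 of the 22 they lay within 50 bp of the summit, and 10 of the 21 windows with a HIF core had it that near. Neither share was computed over all shared distal peaks, so these distances are not shown to be particular to the 10 loci. Windows with both numbered 7. In the promoters, 0 of 9 held TGACTCA, which allows a share of up to 33.6%, and 4.60% of all promoters did.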

How the data were processed

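Peak lists of 4 ATAC-Seq libraries were used as deposited, 1 list per library. Per the labels and methods, the authors trimmed paired-end reads with fastp, aligned them with Bowtie2 2.4.4 to mm9, removed duplicates with Picard and SAMtools 1.9 and called peaks with MACS2 2.2.4 at a q-value of 0.05. The deposited lists give the fold enrichment (the ratio, each side raised by 1, of tags piled up at the summit to the background), the −log10 p-value and the −log10 q-value of each peak. Positions of Cho replicate 2 matched GRCm38 although mm9 was named, so it was compared by distance from the gene start, with no conversion of coordinates. The other lists are in NCBIM37 (mm9).

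In Cho replicate 1, 87815 rows were reduced to 76242 intervals, each with its highest fold enrichment. Summit pileups were solved from these values and the Poisson tail that MACS2 uses, with at most 2 peaks unsolved in any list. The solution was tested on simulated data. The most frequent local background of a list was taken as its library background, and pileup was divided by it. Ratios carry 95% exact binomial (Clopper-Pearson) intervals of the pileups, and shares carry the same kind of interval. All such intervals cover counting error only. Gene starts were RefSeq starts whose promoter bases were found in NCBIM37 (16015 genes, 9 of the 10 members), or otherwise annotated ends of the gene (Epas1). A promoter peak had its summit within 1 kb of the start, and a locus was the GENCODE gene body plus 50 kb to each side. In GRCm38 the NCBIM37 extent was laid out from the start. A difference was called past 1.5-fold.

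The members and lists were chosen with earlier results of these data known. All 10 members were named, with the strongest distal WT peak of each locus by fold enrichment and every shared distal peak past 1.5-fold by pileup with an interval that left out 1. Pathway genes were named where they lacked a promoter peak or passed 1.5-fold. With 1 library per genotype no test between genotypes was made. Alternatives covered windows, gene starts, q-values, measures, scaling, overlap, equal peak numbers and motif length. Motifs were sought on both strands. Python 3.11.15, numpy 2.4.6, pandas 2.3.3, scipy 1.17.1, pysam 0.24.0 and samtools 1.23.1 were used. Other assays of the study were not used here.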

Additional observations from a re-analysis of the deposited data

How the results depend on the processing

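No paired analysis was possible because the replicate numbers of Cho have no counterpart in WT or the deletion library. All 10 members kept a promoter peak in every library within 2 kb, at any transcript start, and at q below 0.01 and below 1e-05. With the GENCODE gene start, chosen after seeing the data, 8 did in Cho replicate 1 and 9 in WT. The median member fold enrichment of Cho was 17.7 to 18.2 with either replicate left out. In −log10 q-value the medians were 42.9, 147.6, 29.4 and 37.5 in both Cho replicates, WT and the deletion library, and in pileup over background 30.0, 101.4, 102.6 and 77.5, so the order of libraries depends on the measure.

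The median log2 promoter ratio of the deletion library to WT was -0.13 by fold enrichment and 0.30 by −log10 q-value, which grows with depth. It was -0.38 by pileup, -0.14 after division by the median of all promoters, and -0.12 by pileup with that division, chosen after seeing the data. Members past 1.5-fold numbered 1 by pileup, 1 by −log10 q-value, 1 after division by the median, and 0 by fold enrichment, by pileup with division, at 2-fold and for overlapping peaks.

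Peaks at the 10 loci numbered 44, 66, 39 and 73 with flanks of 10 kb, in the same order of libraries. With flanks of 100 kb they numbered 255 in Cho replicate 2, 136 for WT and 288 for the deletion library. With equal numbers of strongest peaks Cho replicate 2 had 82 and the deletion library 75, and the ratio of the deletion library to WT went from 2.05 to 1.07. With equal numbers set between WT and the deletion library alone, 84.3% of WT peaks were found in the deletion library and 73.6% of its peaks in WT. At an overlap of at least 50%, 37.1% of deletion library peaks were found in WT.

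The median log2 ratio of shared distal peaks was 0.32 by fold enrichment, -0.00010 by pileup and -0.0036 after division by the median of all such peaks. Past 1.5-fold, pileup gave 4 higher and 7 lower, and division gave 5 higher and 6 lower, against 13 and 0. The direction of distal ratios therefore rests on the scaling. The longer HIF form was in 6 promoters and 14 distal windows, against 8 and 21 for the core. WT had the lowest background pileup, and calls near its limit of 4 tags were not detectable as differences at this depth.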
